A study of Mus musculus with 8 samples.

Results

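Transcripts of 9 genes listed as primed epiblast and anterior neural factors were followed in mouse embryonic stem cells carrying a short hairpin RNA (shRNA) against Rif1. The genes were Otx2, Zic2, Zic5, Pou3f1, Fgf5, Sox1, Sox3, Pax6 and Enpp3. Enpp3 is no transcription factor, and whether it marks either state was not tested. Every probe set annotated to 1 of these symbols alone was taken, which gave 23 of the 45037 probe sets other than controls on the Affymetrix Mouse Genome 430 2.0 array. Of these, 17 probe sets of 8 genes lay above a filter on dim signals and were tested; both probe sets of Fgf5 lay below it. The filter required a signal above the 40th percentile of the array on at least 2 of the 8 arrays. Of the 17, 16 were above that level on all 8 arrays, and Pax6 1452526_a_at was above it on 5.

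Embryonic stem cells grown with feeder cells resemble the naive epiblast of the blastocyst. On leaving this state they pass through a formative and then a primed phase, in which Otx2 and Pou3f1 (Oct6) are induced together with the growth factor Fgf5, before the germ layers form. When the primed epiblast takes the anterior neural path, the SOXB1 factor Sox1 and later Pax6 are switched on, and ZIC zinc-finger factors are transcribed. Several of these genes are also transcribed at lower levels in stem cell cultures, where a fraction of the cells can be on its way out of the naive state.

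The arrays formed 4 groups of 2. J1 cells (strain 129S4/SvJae) received a control shRNA or a Rif1 shRNA by lipofection and were collected 48 h later. F1 cells (C57BL/6xC3H) received a control shRNA or a Rif1 shRNA; the knockdown was stable and studied at passage 16. All cultures were kept on feeder cells, and the F1 control arrays carry the stable knockdown line's name in their cell line label beside the control shRNA. Nothing in the labels says that the 2 arrays of a group are separate cultures, and a p-value here measures the spread between these samples alone, which may be technical. The labels also do not say whether the stable cells were 1 clone. In such bulk samples, fewer cells of a type and less RNA per cell cannot be told apart.

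Rif1, the targeted gene, was lower at all 4 of its probe sets in both lines. At the brightest, the signal was 2614 and 3222 on the J1 control arrays against 1260 and 1297 with the Rif1 shRNA. The F1 control arrays read 4231 and 4247, and the F1 knockdown arrays 1339 and 1407. The fitted level left was 47.2% of control in J1 and 29.9% in F1 (limma, adjusted p = 6.54e-05 and 3.23e-07). F1 arrays were brighter than J1 arrays, with 2% trimmed means of 301 to 309 against 193 to 197, so deposited signals are set side by side only within a line, and every fit used quantile-normalized values. The 3'/5' ratio of the actin control probe sets was 2.17 to 2.71 in J1 and 1.33 to 1.41 in F1. The Y-linked gene Eif2s3y, looked up after its values were seen, read 780 to 901 on J1 arrays, 19.9 and 21.4 on the F1 controls, and 911 and 960 on the F1 knockdown arrays. Y-linked Uty and X-linked Xist were looked up likewise. Uty 1426598_at read 7.5 and 4.7 on the F1 controls and 144 and 142 on the F1 knockdown arrays. Xist 1436936_s_at read 106 and 117 against 192 and 205. The 2 F1 groups therefore differed in Y-linked and Xist signal as well as in Rif1. The effect of the shRNA and any other difference between these 2 cultures cannot be told apart. Every F1 result below carries this limit.

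The promoter windows of 6 of the genes were read from RefSeq (build GRCm38.p6) as 300 bases each, from 250 before to 50 after a transcription start, which gave 10 windows. Zic2, Pou3f1 and Sox3 are named only. Both strands were searched for 4 motifs bound by factors of the families studied here: TAATCC (OTX), ATGCAAAT (POU octamer), CATTGT (SOX) and CAGCAGG (ZIC). These letters occurred in 7.06%, 1.74%, 12.6% and 10.5% of 32851 promoter windows of the same length. None of the motif strings contains another. A match to any of the 4 occurred in 3 of the 10 windows, and in 28.6% of all windows. The 3 windows are shown because they are the ones that hold a match, with the matched bases in capitals, on the gene's own strand. The Otx2 window, chr14:48665060-48665359 (minus strand), holds the OTX letters on the opposite strand, with the first base at position -211 from the start. The Sox1 window, chr8:12395269-12395568 (plus strand), holds the octamer with its first base at position 19. The Enpp3 window, chr10:24836146-24836445 (minus strand), holds the SOX letters on the opposite strand from position -118.
Otx2: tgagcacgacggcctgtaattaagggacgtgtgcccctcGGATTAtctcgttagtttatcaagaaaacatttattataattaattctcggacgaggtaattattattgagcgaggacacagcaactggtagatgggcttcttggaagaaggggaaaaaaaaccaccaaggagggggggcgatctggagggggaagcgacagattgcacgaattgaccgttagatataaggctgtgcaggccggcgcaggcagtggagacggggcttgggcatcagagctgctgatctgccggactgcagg
Sox1: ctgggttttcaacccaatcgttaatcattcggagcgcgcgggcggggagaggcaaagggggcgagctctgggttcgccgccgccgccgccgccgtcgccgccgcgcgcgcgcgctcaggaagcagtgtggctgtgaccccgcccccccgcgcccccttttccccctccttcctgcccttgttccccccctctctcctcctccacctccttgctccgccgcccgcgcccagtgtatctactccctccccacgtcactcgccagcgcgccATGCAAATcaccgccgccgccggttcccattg
Enpp3: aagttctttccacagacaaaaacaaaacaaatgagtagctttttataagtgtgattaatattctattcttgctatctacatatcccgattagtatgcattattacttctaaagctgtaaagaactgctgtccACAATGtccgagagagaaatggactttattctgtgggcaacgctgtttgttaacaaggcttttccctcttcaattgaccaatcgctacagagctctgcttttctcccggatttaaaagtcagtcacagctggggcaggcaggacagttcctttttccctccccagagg
The Sox1 window holds 37 CpG, the Otx2 window 16 and the Enpp3 window 5, against a median of 7 over all windows. The other 3 Otx2 windows and the windows of Zic5, Fgf5 and Pax6 hold none of the 4 strings. A match of letters is a description and shows no binding.

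The first question was whether these genes move soon after Rif1 is lowered. In J1 cells, 0 of the 17 probe sets passed an adjusted p under 0.05 in limma in either direction, where 3.18% of all 31605 tested probe sets passed. At an unadjusted p under 0.05 there were 3 of 17, against 17.1% of all. The median log2 fold change, Rif1 shRNA over control, was 0.10, against 0.00 over all probe sets, and adjusted p ran from 0.0872 to 0.970. All fold changes in the text were fitted to normalized log2(signal + 18), a scale that understates the change of dim genes. In 11 of 17 the fitted change was positive. On the normalized scale the arrays of the 2 groups did not overlap at 7 probe sets: 4 had both knockdown arrays higher, where 18.8% of all probe sets did, and 3 had both lower, where 21.0% did. On deposited signals it was 5 higher and 2 lower.

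The same genes were then compared in F1 cells after stable knockdown. Here 10 of 17 probe sets (58.8%), of 6 genes, were lower and 0 were higher, where 6.81% of all tested probe sets were lower and 8.28% were higher. The 6 genes were Otx2, Zic2, Zic5, Sox1, Pax6 and Enpp3. The median log2 fold change was -0.52, against -0.03 over all probe sets. On the normalized scale both knockdown arrays lay below both control arrays at 13 of the 17, where 35.5% of all probe sets did, and on deposited signals at 11 of the 17. With each gene taken at its brightest probe set, 6 of 8 were lower, where 8.20% of 14714 genes were, and the median was -0.69 against -0.02. The genes followed here were chosen with earlier results of these data known. These contrasts with all probe sets or all genes are therefore no test of enrichment. The part that the choice has in them was not tested. Since the 2 F1 groups hold 2 arrays each, leaving out 1 array costs calls: 6 probe sets passed without control replicate 1 or without Rif1 shRNA replicate 1, and 7 without either other F1 array. The 6 probe sets that kept the call under every alternative were Otx2, Zic5 1456140_at and 1456219_at, Sox1 1438729_at, Pax6 1419271_at and Enpp3 1427302_at.

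**Figure D1:**
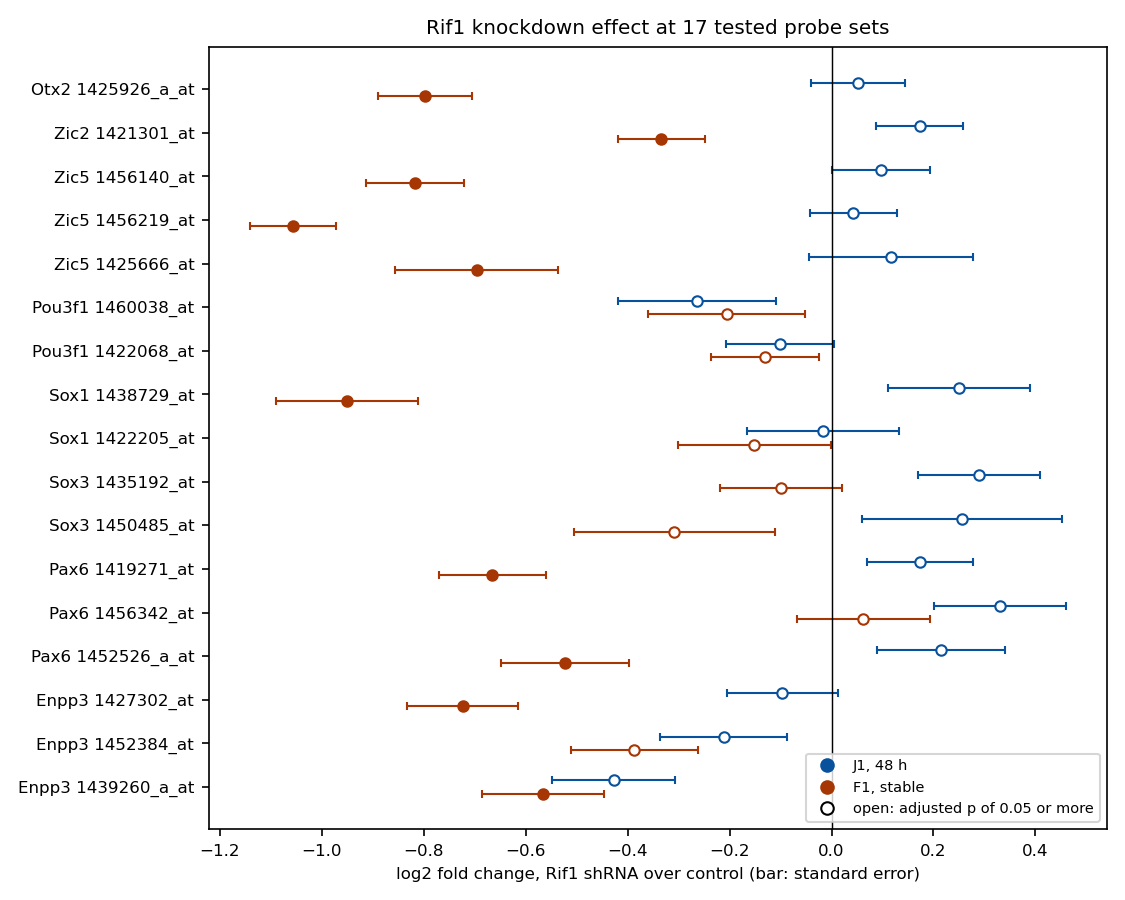
Log2 fold change of Rif1 shRNA over control (x axis) at the 17 tested probe sets (y axis, gene and probe set), with the standard error as a bar; blue is J1 and brown is F1, and filled points have an adjusted p under 0.05 in limma. All 10 filled points are F1 and lie between -1.06 and -0.33, while no J1 point is filled.

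Otx2 is a homeodomain factor that drives the move from the naive to the primed state and later patterns the forebrain and midbrain. Its single probe set read 477 and 492 on the J1 control arrays and 467 and 522 on the J1 knockdown arrays. In F1 the control arrays read 274 and 318 and the knockdown arrays 147 and 158. The J1 groups overlapped, whereas both F1 knockdown arrays were far below both controls. The log2 fold change was -0.80 ± 0.09 (SE, n = 2 per group) in F1, which left 57.6% of the control level (limma, adjusted p = 0.0001705). In J1 it was 0.05, with a 95% interval from -0.15 to 0.25. The F1 effect was lower than the J1 effect by 0.85 on the log2 scale (adjusted p = 0.00251).

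Zic2 and Zic5 encode zinc-finger factors of the neural plate and dorsal neural tube, and the Zic2 protein also binds enhancers in stem cells. They are neighbours on chromosome 14, with 0 protein-coding genes between them in RefSeq. Zic2 read 1069 and 1066 in the J1 controls and 1081 and 1301 with the Rif1 shRNA, so the J1 knockdown arrays were both higher. In F1 it read 265 and 277 in the controls and 217 and 208 in the knockdown, with no overlap. The F1 change was -0.33 ± 0.09 (adjusted p = 0.0229 in limma), or 79.3% of control, and the J1 change was 0.17 (adjusted p = 0.341). This F1 call was lost without any 1 of the 4 F1 arrays (adjusted p 0.0985 to 0.167) and with no intensity trend in the fit (0.0560).

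Zic5 fell at all 3 of its probe sets in F1. At the brightest, 1456140_at, the controls read 802 and 787 and the knockdown arrays 433 and 466. The J1 arrays of that probe set overlapped, at 546 and 666 in the controls and 678 and 600 in the knockdown. The F1 log2 fold change was -0.82 ± 0.10 (adjusted p = 0.000200), or 56.7% of control. At 1456219_at the F1 controls read 652 and 571 and the knockdown arrays 263 and 289, the lowest fold change of the 17 probe sets, at -1.06 ± 0.08 (adjusted p = 1.28e-05). The J1 changes of these 2 probe sets were 0.10 and 0.04. The dimmer 1425666_at read 166 and 145 in the F1 controls against 84.4 and 79.5, a change of -0.70 (adjusted p = 0.0132) that no longer passed without any 1 of the F1 arrays (0.0512 to 0.1165). All 3 Zic5 probe sets thus fell in F1. The neighbouring Zic2 had a smaller fitted change, and the difference between the 2 genes was not tested.

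**Figure D2:**
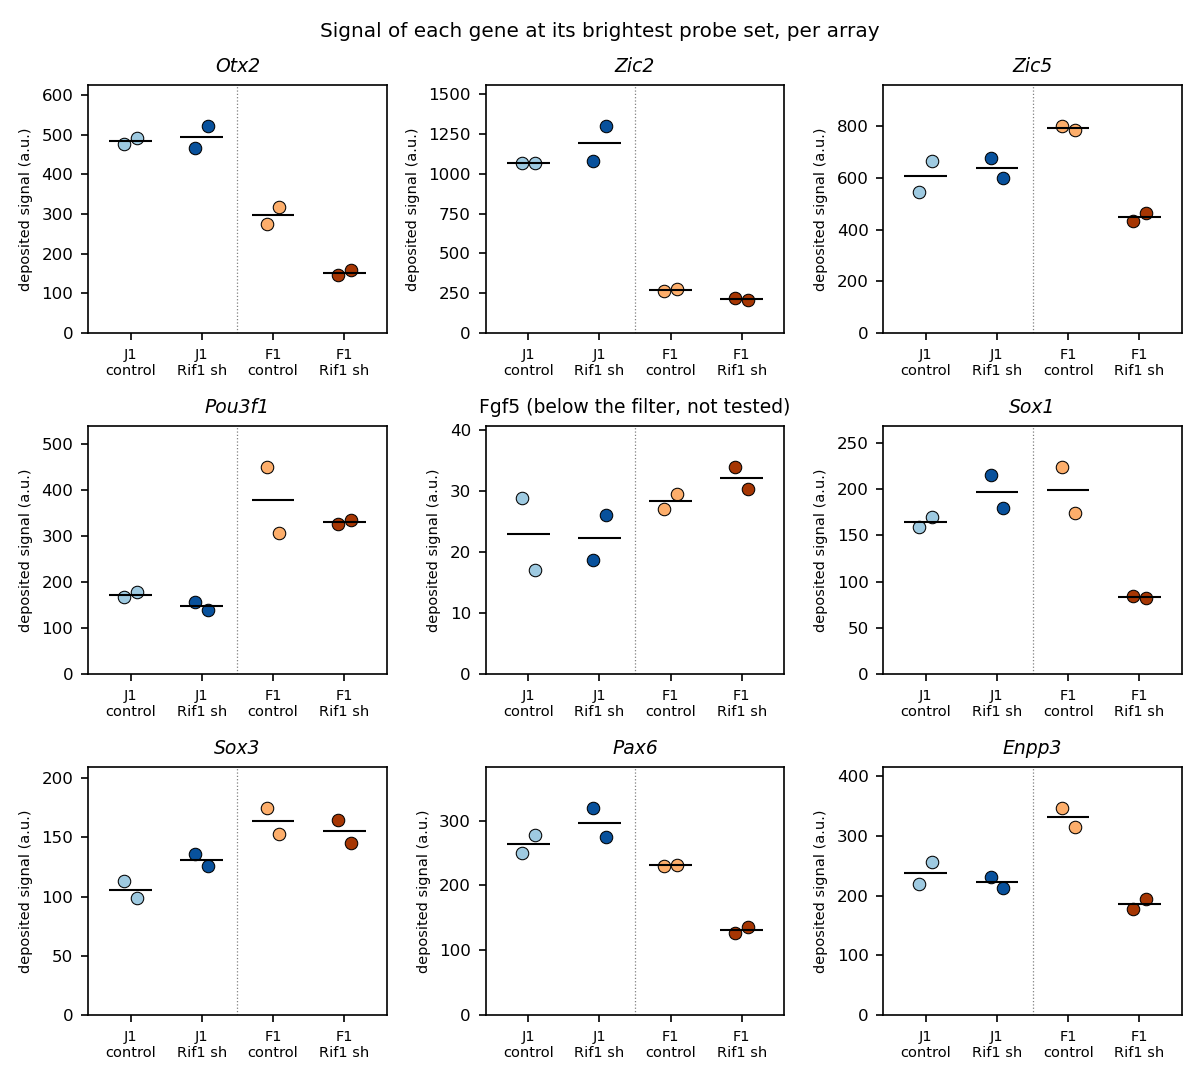
Deposited signal (y axis, arbitrary units, from 0) of each of the 9 genes at its brightest probe set, with 1 point per array and a line at the mean of the 2 arrays, for control and Rif1 shRNA arrays of J1 (blue) and of F1 (orange and brown). The F1 knockdown points lie below the F1 control points for Otx2, Zic2, Zic5, Sox1, Pax6 and Enpp3; heights should be compared only within a line, since F1 arrays have a larger trimmed mean signal.

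Among the SOXB1 factors, which keep cells in a neural progenitor state, Sox1 is the classic marker of the first neural cells. At its brighter probe set, 1438729_at, Sox1 read 224 and 174 in the F1 controls and 84.6 and 82.2 in the knockdown. In J1 it read 159 and 170.0 in the controls and 215 and 179.6 in the knockdown, so the knockdown arrays were higher in J1 and lower in F1. The F1 change was -0.95 ± 0.14 (limma, adjusted p = 0.000897), or 51.7% of control, and the J1 change was 0.25 (adjusted p = 0.401). The 2 Sox1 probe sets disagreed: at 1422205_at the F1 controls read 85.1 and 109 and the knockdown arrays 88.0 and 81.5, which overlap. The change there was -0.15, with a 95% interval from -0.48 to 0.18.

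Sox3, an X-linked SOXB1 gene expressed through the early epiblast and neural plate, did not pass at either probe set. At 1435192_at it read 113 and 98.3 in the J1 controls and 136 and 126 in the J1 knockdown. The F1 values overlapped, at 175 and 153 in the controls and 165 and 145 in the knockdown. The changes were 0.29 in J1 (adjusted p = 0.245) and -0.10 in F1 (adjusted p = 0.675), the latter with a 95% interval from -0.36 to 0.16. At 1450485_at the F1 change was -0.31, with an interval from -0.74 to 0.12. These intervals leave room for a fall of the size seen at Zic2.

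Pou3f1 encodes a POU factor that works beside Otx2 in primed cells and promotes neural fate. Its brighter probe set read 167 and 178 in the J1 controls and 158 and 140.2 in the knockdown. In F1 it read 450.4 and 306 in the controls and 326 and 334 in the knockdown, so the F1 groups overlapped and 1 control array was well above the rest. The changes were -0.26 in J1 and -0.21 in F1 (adjusted p = 0.430 and 0.457 in limma), with a 95% interval in F1 from -0.55 to 0.13. The second probe set gave -0.13 in F1, from -0.36 to 0.10. The fall of Otx2 was outside these intervals, although the 2 genes were not tested against each other.

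Fgf5, the secreted growth factor most used as a primed epiblast marker, was dim throughout. Its probe set 1426186_a_at read 28.8 and 16.98 in the J1 controls, 18.6 and 26.1 in the J1 knockdown, 27.1 and 29.5 in the F1 controls and 34.0 and 30.4 in the F1 knockdown. The 40th percentile of the arrays lay between 46.6 and 52.7, above every one of these values. At the second, 1438883_at, the F1 knockdown arrays (34.8 and 34.4) were above the F1 controls (24.4 and 14.9). With no filter, the fit gave a change of 0.47 for that probe set (limma, adjusted p = 0.0382) and 0.11 for the other (0.750). With both groups of arrays under the 40th percentile, no change is read from either.

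Pax6 encodes a paired-domain factor of the forebrain and eye. At its brightest probe set, 1419271_at, the J1 controls read 250.1 and 278 and the J1 knockdown arrays 319.6 and 274, which overlap. The F1 controls read 230.5 and 231 and the F1 knockdown arrays 127 and 135. The F1 change was -0.67 ± 0.10 (limma, adjusted p = 0.00143), or 63.0% of control, against 0.17 in J1. The dimmer 1452526_a_at moved by -0.52 in F1 (adjusted p = 0.0162), a call lost without any 1 F1 array (0.0516 to 0.169), whereas 1456342_at moved by 0.06 (adjusted p = 0.829), with a 95% interval from -0.22 to 0.35. The other 2 Pax6 probe sets were too dim to test. Thus 2 of the 3 tested Pax6 probe sets fell in F1 and the other did not pass.

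Enpp3 encodes a cell-surface nucleotide pyrophosphatase and is no transcription factor, and whether it marks either cell state was not tested. Its brightest probe set, 1427302_at, read 221 and 257 in the J1 controls, 232 and 214 in the J1 knockdown, 347 and 316 in the F1 controls and 177 and 194 in the F1 knockdown. The J1 arrays overlapped and the F1 arrays did not. The F1 change was -0.72 ± 0.11 (limma, adjusted p = 0.00107), or 60.6% of control, and the J1 change was -0.10 (0.708). At 1439260_a_at both lines had lower knockdown arrays, with 201 and 176 against 149.7 and 144 in J1 and 156 and 129 against 79.8 and 89.8 in F1. The change was -0.43 in J1, the nearest to the threshold of the 17 (adjusted p = 0.0872), and -0.57 in F1 (0.00836). That F1 call was lost without F1 control replicate 1 (0.107) or Rif1 shRNA replicate 1 (0.110). The third tested probe set, 1452384_at, moved by -0.39 in F1 (0.0613) and passed in 7 of the alternatives. Of the 2 dim Enpp3 probe sets, 1427303_at was higher in J1 when no filter was used (0.50, adjusted p = 0.0446), on signals of 25.0 and 19.6 against 38.4 and 38.1.

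Whether the 2 knockdowns differed was tested directly, as the F1 effect minus the J1 effect. The difference passed at 8 of 17 probe sets, all 8 lower in F1, where 3.37% of all tested probe sets passed in that direction. These were Otx2, Zic2, both brighter Zic5 probe sets, Sox1 1438729_at, Pax6 1419271_at and 1452526_a_at, and Enpp3 1427302_at, with differences from -0.51 at Zic2 to -1.20 at Sox1. Only 5 passed without J1 control replicate 1 or without any 1 of the F1 arrays, and in each of these cases Zic2, Pax6 1452526_a_at and Enpp3 1427302_at were the ones lost. For Zic5 1425666_at it was -0.81 (limma, adjusted p = 0.0514). For the other 2 tested Enpp3 probe sets it was -0.18 and -0.14, for the Pou3f1 probe sets 0.06 and -0.03, and for Sox3 -0.39 and -0.56; none of these 6 passed. Cell line, strain, time after knockdown and extent of Rif1 loss differ between the 2 settings and cannot be told apart. Because the genes were chosen with earlier results of these data known, the contrast with 3.37% of all probe sets is no test of enrichment.

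The control cells of the 2 lines already differed in these transcripts. The F1 controls were lower than the J1 controls at 9 probe sets and higher at 2, or 64.7%, which is near the 67.5% of all probe sets that passed in this comparison. Zic2 was lower by 2.55 on the normalized log2 scale and Otx2 by 1.34, whereas both Pou3f1 probe sets were higher, by 0.43 and 0.72. The smaller of these fell to 0.17 and no longer passed without F1 control replicate 1 (limma, adjusted p = 0.334), and it also did not pass without either J1 control array (0.145 and 0.0524). In mean normalized level, Otx2 ran J1 Rif1 shRNA, J1 control, F1 control, F1 Rif1 shRNA from high to low, and the 2 J1 groups were the neighbours that overlapped. Zic2, Pax6 1419271_at, Zic5 at both brighter probe sets, Sox1 1438729_at and Sox3 1450485_at had that same order of means. For Pou3f1 the order put both F1 groups above both J1 groups. This comparison uses the same control arrays as the knockdown effects, so it gives no separate support to them. For 1 uncalled value the direction turned with the scaling and then passed: Pax6 1452526_a_at was 0.17 higher in the F1 controls after quantile normalization and -0.33 with scaling to a common trimmed mean (adjusted p = 0.0319).

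In the wider set of primed and formative epiblast genes, those that passed in F1 did not move in 1 direction. The fitted change was positive for 14 of 19 genes in F1 and for 14 in J1, against 6848 and 7553 of all 14714 genes. Of 19 other genes measured, 4 rose and 3 fell in F1, with a median log2 fold change of 0.14 against -0.02 over all genes, where 10.6% of all genes rose and 8.20% fell. Nodal, the ligand of the epiblast, rose by 0.52, Cdh2 (N-cadherin) by 0.71 and Fgf8 by 0.56, and Cldn6, a claudin, by 0.41. The mean signal of Fgf8 was 36.1 and 41.1 in the J1 control and knockdown and 46.7 in the F1 controls. These means lie near or below the filter level, and that of the F1 knockdown was 84.0, so the rise of Fgf8 gives no support. Tead2 fell by 0.38, Utf1 by 0.37 and the DNA methyltransferase Dnmt3b by 0.28. Without F1 control replicate 2 or Rif1 shRNA replicate 1, only 2 rose, and without F1 control replicate 1 or Rif1 shRNA replicate 2, only 1 fell. In J1, where 1.86% of all genes rose and 2.17% fell, Pim2 rose by 0.63 and no other gene of the list passed; without either J1 control array it did not pass. The genes that spell out these counts, here and in the next 3 paragraphs, include some chosen after their values were seen. The lists themselves were chosen with earlier results of these data known, so their shares are no test of enrichment either.

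None of 16 other genes measured on a list of anterior neural genes passed in J1 in limma. There 4 had an unadjusted p under 0.05, as did 2911 of all 14714 genes. The list is broad and not limited to markers of the anterior neural plate. In F1, 4 rose and 2 fell, with a median of -0.03, where 10.6% of all genes rose and 8.20% fell. Nr2f1, a nuclear receptor of the developing cortex, rose by 1.05, Irx3 by 0.49, Gbx2 by 0.45 and the progenitor filament gene Nes by 0.37. The mean signal of Nr2f1 was 12.1 and 11.0 in the J1 control and knockdown and 24.6 in the F1 controls. These means lie below the filter level, and that of the F1 knockdown was 78.05. Nr2f1 was thus tested only through the group where it was high, so its rise gives no support. Hesx1, a homeobox repressor of the anterior neural ridge and pituitary, fell by 0.67 and Msi1, an RNA-binding protein of neural progenitors, by 0.34. These counts were fragile: 0 rose without F1 Rif1 shRNA replicate 1, and 1 rose without F1 control replicate 2 or Rif1 shRNA replicate 2. Without any 1 of the F1 arrays, 1 fell. With the replicate block, 2 rose and 1 fell. Of 11 genes of this list that were not tested, 9 were below the filter, among them Lhx2, Emx2 and Six6.

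Of 8 measured paralogues of the genes, Fgf4 fell by 0.62 and Sox2 by 0.26 in F1, where 8.20% of all genes fell, and no other passed. Fgf4 is also on the naive pluripotency list below and Sox2 on the core list, so each of these falls is counted in both places. None of the 4 FGF receptor genes passed in either line in limma. An unadjusted p under 0.05 was seen for 1 in J1 and 2 in F1, against 2911 and 4649 of all 14714 genes. Of the 4 core pluripotency genes, Sox2 was the 1 that fell in F1; the log2 fold changes of Pou5f1, Nanog and Sall4 were 0.08, 0.14 and -0.07, and none of these passed. In J1, Sall4 fell by 0.34. Of 14 naive pluripotency genes, 7 fell in F1, where 8.20% of all genes did, Tcl1 by 0.90 and Esrrb by 0.54 among them. Only 4 fell when no intensity trend was used. The naive list had a median of -0.28 in F1. In J1, Tfcp2l1 fell by 0.61 and no other naive gene passed. The J1 call of Sall4 was lost without J1 control replicate 2, and that of Tfcp2l1 without either J1 control array.

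Markers of other cell types moved in F1 together with the fall of Otx2, Zic2, Zic5, Sox1, Pax6 and Enpp3. Over all genes in F1, 10.6% rose and 8.20% fell, and each F1 count below stands beside these shares. Of 24 feeder fibroblast genes measured, 21 rose and 1 fell, with a median of 1.28. Their summed signal was 24275 to 24700 in the F1 controls and 47809 to 49032 in the F1 knockdown. In J1 the summed signal was 16869 to 18065 in the controls and 15218 to 15305 in the knockdown, and 8 genes fell. The trophoblast list had 6 of 10 genes higher and 1 lower in F1, led by Krt18 (3.14) and Krt8 (3.09), with a summed signal of 2632 to 2855 against 9998 to 10888. Without Krt8 and Krt18, the other 8 genes summed to 1647 to 1849.7 in the F1 controls and 1629.7 to 1745 in the knockdown. Of these 8, Krt7 rose by 1.58, Hand1 by 1.23, Eomes by 0.97 and Esx1 by 0.70. The gene that fell was the trophoblast factor Tfap2c, by 0.85, from a mean F1 signal of 1254 to 694. Of the defining genes Elf5, Gata3 and Tpbpa were below the filter. The trophoblast factor Cdx2 was tested and did not pass in F1 (0.14), with mean signals of 52.2 in the controls and 60.4 in the knockdown. Ascl2 and Plac1 also did not pass (-0.10 and 0.25). The primitive streak list had 4 of 9 higher, led by Cdx1 (1.70) and Hoxb1 (1.33), with sums of 570.1 to 612 against 1283 to 1327. The primitive endoderm list had 5 of 16 higher and 3 lower, with sums of 6591 to 6598 against 8370 to 8560. Col4a1, Col4a2, Sparc, Pdgfra and Lamb1 rose, and Cubn, Lama1 and Lamc1 fell. Sparc alone went from a mean F1 signal of 2215 to 3683. The transcription factors Gata4, Gata6, Sox7, Sox17, Foxa2 and Hnf4a did not pass (-0.34, -0.09, -0.20, -0.26, 0.09 and 0.12). Of 6 neuronal genes measured, Rbfox3 fell by 0.56 and no other passed, with sums of 6279 to 6420 against 6201 to 6404. In J1, where 2.17% of all genes fell, 4 primitive endoderm and 2 trophoblast genes fell, and none of the streak or neuronal genes passed. Leaving out 1 array moved the J1 counts to between 1 and 7 for primitive endoderm and 2 and 9 for feeder genes, and the F1 primitive endoderm rises to between 3 and 5. The part that these markers have in the F1 results was not tested.

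**Figure D3:**
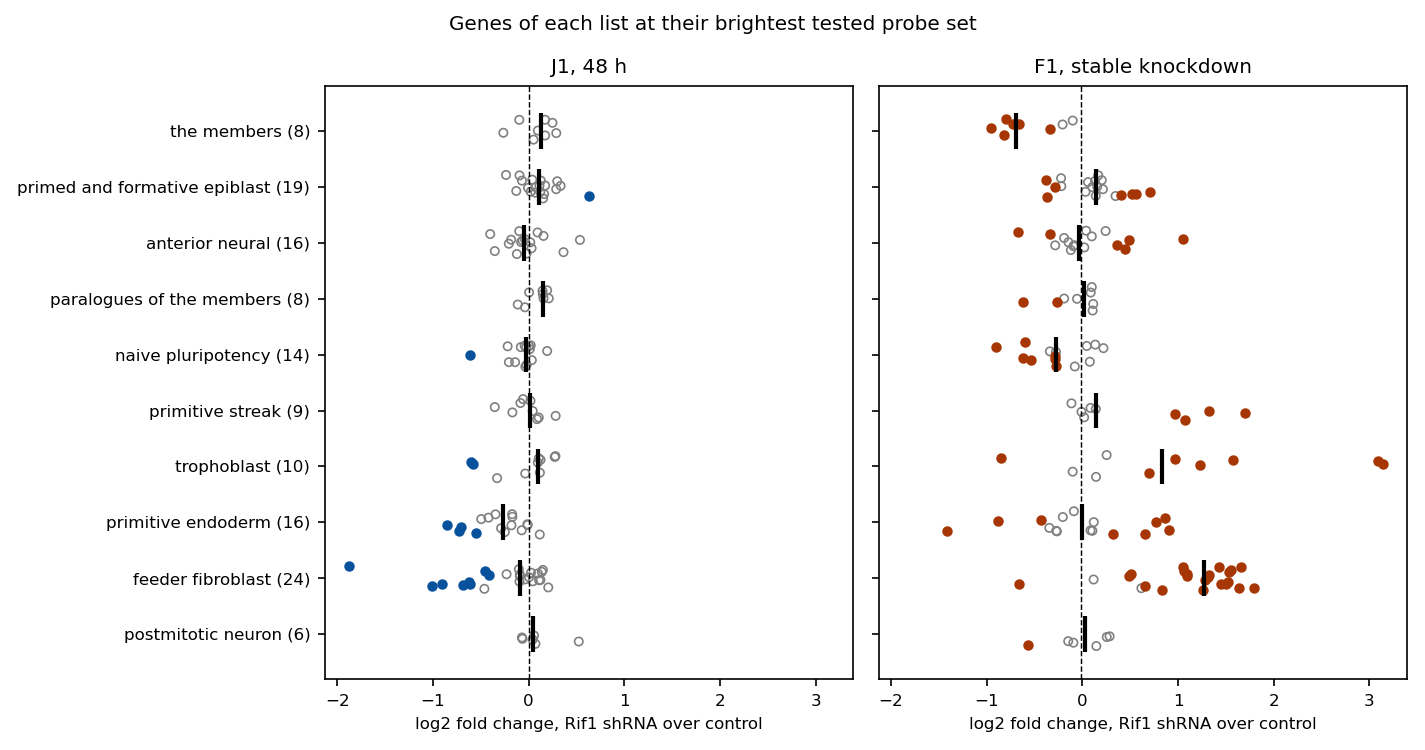
Log2 fold change of Rif1 shRNA over control (x axis) in J1 (left) and F1 (right) for the genes of each list, each at its brightest tested probe set, with the number of genes in brackets; filled points passed an adjusted p under 0.05, black bars are list medians and the dashed line is the median of all genes. In F1 the 8 genes in the top group have a median of -0.69 and the feeder fibroblast genes 1.28. The genes of the primed epiblast and anterior neural lists spread to both sides.

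The 3 genes closest in pattern to each gene's brightest probe set were listed by Pearson correlation of normalized values over the 8 arrays, as a description. For Otx2 they were Mapk9, Asns and Dmrtb1 (r = 0.997 to 0.998), for Zic2 Cdkn1b, Sfrp4 and Vldlr (0.9992 to 0.9995), and for Zic5 Shfl, Terf1 and Fbxo3 (0.993 to 0.994). For Sox1 they were Chic1, Pcbd1 and Slc27a2 (0.988 to 0.991), for Pax6 Elk4, Cobl and Ifitm1 (0.995 to 0.996), and for Enpp3 2310043M15Rik, Pdgfc and Pck2 (0.989 to 0.992). Pou3f1 was closest to Lrrc58, Nkrf and Ppm1f (0.970 to 0.983), and Sox3 to Nt5c3b, Cdkn2aipnl and Nap1l5 (0.924 to 0.958). The arrays share the line difference, and 2018 probe sets exceeded r = 0.95 with Otx2 and 3856 with Zic2, against 2 with Sox3. In F1, Asns, Shfl, Terf1 and Fbxo3 fell by 0.30, 0.48, 0.37 and 0.44. Cobl, Ifitm1 and every neighbour listed for Sox1 and Enpp3 also fell, and the other neighbours did not pass in limma. The neighbours were chosen over arrays that include both F1 groups, so their falls give no separate support.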

How the data were processed

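The deposited values are intensity signals made by the authors with MAS5, per the submitters' processing notes, at 1 linear value per probe set and array. RNA was extracted with Trizol and labelled with biotin, per the labels. The treatment protocol in the labels mentions virus or siRNA, while other labels name shRNA.

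Values were quantile normalized across 8 arrays as log2(signal + 18), where 18 is the rounded 10th percentile. Then 64 control probe sets and those under the filter were dropped, leaving 31605. Groups were fitted with limma 3.58.1 in R 4.3.3 (eBayes with an intensity trend, 4 residual degrees of freedom). The 4 groups shared 1 estimate of the spread per probe set. The median residual standard deviation was 0.115 in J1 and 0.066 in F1. The shared spread thus tends to be too narrow for J1 and too wide for F1. Over all tested probe sets, 1004 passed in J1 and 4768 in F1. With only the 4 arrays of a line in the fit, 311 and 8210 passed. Tests were two-sided, with Benjamini-Hochberg adjustment over all 31605 and a threshold of 0.05. The fit was tested on simulated data. Gene names came from the platform annotation. Named were every member and Rif1 probe set, the core pluripotency genes, the 4 smallest p of the epiblast, neural, paralogue and receptor lists per line (described where they passed), the 2 smallest p of the other lists (described likewise where they lead), and 3 pattern neighbours a gene. The genes and lists were chosen with earlier results of these data known. Same-numbered arrays had correlated deviations of 0.19 in F1 and -0.34 in J1, so the numbers were not taken to pair them. Figures were drawn with matplotlib 3.10.9.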

Additional observations from a re-analysis of the deposited data

Results flagged for a closer look

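For 8 probe sets the effect of the Rif1 shRNA differed between the 2 lines by a test of the difference itself (F1 effect minus J1 effect, limma, adjusted over all tested probe sets). Sox1 1438729_at had the largest difference, -1.20 (adjusted p = 0.00371), with the knockdown arrays higher in J1 and lower in F1. Zic5 had -1.10 at 1456219_at (0.000314) and -0.91 at 1456140_at (0.00209). Otx2 had -0.85 (0.00251). Pax6 had -0.84 at 1419271_at (0.00565) and -0.74 at 1452526_a_at (0.0265). Enpp3 1427302_at had -0.63 (0.0291) and Zic2 had -0.51 (0.0259). The differences at Zic2, Enpp3 1427302_at and Pax6 1452526_a_at did not pass without any 1 of the F1 arrays, and the other 5 passed under every alternative run.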

How the results depend on the processing

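Alternatives were other offsets, filters, scalings, fits, replicate blocks and each array left out in turn; the crossed replicate block was chosen after seeing the data. Over leaving out 1 array, the counts of called probe sets ran from 6 to 11 in F1 (10 with all arrays), 5 to 9 for the difference (8), 9 to 11 for the controls (11) and stayed 0 in J1. With no filter, 1 probe set passed in J1 (Enpp3 1427303_at). With the replicate block the counts were 0 in J1, 10 in F1, 6 for the difference and 10 for the controls; with the crossed replicate block they were 0, 11, 9 and 12. The pairing by number rests on the number alone. Values that turned their sign were all short of the threshold except Pax6 1452526_a_at between the controls, -0.33 when scaled to 1 trimmed mean. That scaling also gave 0.0336 for Sox1 1422205_at in J1, and between the controls -0.33 for that probe set and -0.0016 for Zic5 1425666_at. Normalization within each line gave -0.0096 for the difference at Pou3f1 1460038_at, and an offset 4 times larger gave 0.49 for the difference at Rif1 1429490_at. With 1 array left out, the J1 change ran from -0.22 to 0.19 at Sox1 1422205_at, -0.16 to 0.40 at Zic5 1425666_at, -0.0337 to 0.14 at Otx2, -0.21 to 0.0163 at Enpp3 1427302_at, -0.0841 to 0.60 at Sox3 1450485_at and -0.0327 to 0.23 at Zic5 1456140_at. The F1 change ran from -0.077 to 0.20 at Pax6 1456342_at and -0.46 to 0.0505 at Pou3f1 1460038_at. The difference ran from -0.0965 to 0.0377 at Pou3f1 1422068_at, -0.34 to 0.0675 at Sox1 1422205_at, -0.20 to 0.31 at Pou3f1 1460038_at and -0.75 to 0.34 at Rif1 1429490_at. The control comparison ran from -0.10 to 0.15 at Sox1 1422205_at, -0.0275 to 0.54 at Zic5 1425666_at, -0.19 to 0.0885 at Rif1 1429491_s_at and -0.0653 to 0.25 at Rif1 1437179_at. The cause was not tested. With 1 array left out of a group, the lone array was assumed to vary like the others. The 6 dim member probe sets, both of Fgf5 among them, had signals of 11.3 to 50.9 and limit what can be said of them.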
